A study of Mus musculus with 6 samples.

Results

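Collagen genes were examined for peaks of the transcription factor E2F1 in NIH/3T3, a fibroblast cell line that was established from mouse embryos. The genes were chosen by name alone: every protein-coding gene of the RefSeq table of GRCm38.p6 whose symbol reads Col, a number, a and a number, which gave 44 of 21887 protein-coding genes on the assembled nuclear chromosomes. E2F1 was measured by chromatin immunoprecipitation and sequencing (ChIP-seq), and each library came as a list of peaks, the places where reads pile up over the local background. Doxycycline switched on E2F1 in one group of cells, and the other group held the empty vector (EV) in its place. Each group had 2 libraries, and all cells, EV included, had been starved in medium with 0.25% serum for 48 hours and collected after 12 hours of doxycycline, given at 500 ng/ml per the labels' protocol, although the names of the deposited lists carry another dose figure. Whether the cells were 1 clone, and whether the libraries of a group came from separate cultures, is not given in the sources used here. Peak lists hold no expression values, so the fibroblast identity of the cells and the induction of E2F1 could not be checked against marker genes.

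Collagens are the main structural proteins of the extracellular matrix. Each is a trimer of alpha chains, and each chain has its own gene. Fibrillar collagens such as collagen I and III form the tensile fibres that fibroblasts secrete, collagen IV forms the sheet of basement membranes, collagen VI forms beaded filaments, and FACIT collagens decorate fibrils. The chains are hydroxylated, glycosylated and folded in the endoplasmic reticulum before export. E2F1 is known for binding promoters of genes for DNA replication and entry into S phase, and collagen genes are not among its textbook targets.

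The lists held 7836 and 8027 peaks in E2F1 replicates 1 and 2, and 70 and 358 peaks in EV replicates 1 and 2. In every list the smallest −log10 p lay just above 10, so weaker sites are missing and a gene without a peak need not lack signal. The lowest local background, the measure of depth used here, was 1.85 and 1.86 reads in the E2F1 libraries and 2.20 and 1.18 reads in the EV libraries. A peak's fold and score are the authors' values, and ranks within a list follow from them. Folds of the 2 E2F1 lists were averaged only to choose which genes of the comparison lists to name. Positions are on GRCm38, counted from 1.

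Most collagen genes had no E2F1 peak, which was also true of most protein-coding genes. Of the 44, 5 had a peak inside the gene or within 1000 bp of it in both E2F1 lists: Col5a1, Col16a1, Col4a1, Col4a2 and Col23a1. That is 11.4% (Wilson 95% interval 4.95 to 24.0), against 34.4% of all protein-coding genes. The interval covers counting error only, and Col4a1 and Col4a2 share 1 peak, so the 5 genes stand on 4 sites. Another 2 genes, Col1a1 and Col6a2, had a peak in E2F1 replicate 2 and none in replicate 1. Over all protein-coding genes this held for 827 of 21887, a share near that of the collagen genes. The remaining 37 collagen genes had none in either list, as did 12975 of all 21887 protein-coding genes. The share of collagen genes was below that of all genes, and the size of that gap was described without a test.

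The promoters that carry these results are shown here first, from the RefSeq promoter table of GRCm38.p6, which gives 250 bases before to 50 bases after a transcription start, written 5′ to 3′ on the strand of the gene. It held 35 of the 44 genes. Not in it were Col1a1, Col2a1, Col4a3, Col5a2, Col9a3, Col12a1, Col14a1, Col22a1 and Col26a1. Capitals mark short words searched on both strands: 4 E2F-like words and the Sp1-like word GGGCGG. The E2F-like words were TTGGCGC and TTCGCGC as well as TTCCCGC and TTGCCGC. On the opposite strand TTCCCGC can overlap GGGCGG by sharing bases. The first 3 are promoters with a peak in both E2F1 lists: Col5a1 (chr2:27886175-27886474, plus strand), Col16a1 (chr4:130047590-130047889, plus strand) and Col4a2 (chr8:11312555-11312854, plus strand), whose window also reaches into the start of Col4a1 on the other strand.
Col5a1: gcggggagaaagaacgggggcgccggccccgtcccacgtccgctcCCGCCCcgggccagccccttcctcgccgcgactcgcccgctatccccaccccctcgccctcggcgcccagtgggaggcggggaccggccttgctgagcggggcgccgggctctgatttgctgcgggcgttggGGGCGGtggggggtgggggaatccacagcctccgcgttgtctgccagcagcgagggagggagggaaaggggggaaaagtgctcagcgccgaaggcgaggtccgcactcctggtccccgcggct
Col16a1: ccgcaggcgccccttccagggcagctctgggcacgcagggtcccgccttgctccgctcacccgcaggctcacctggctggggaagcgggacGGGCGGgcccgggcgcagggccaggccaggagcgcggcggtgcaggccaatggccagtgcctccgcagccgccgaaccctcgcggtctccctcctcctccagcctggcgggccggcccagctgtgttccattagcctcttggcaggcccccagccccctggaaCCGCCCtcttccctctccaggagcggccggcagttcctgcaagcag
Col4a2: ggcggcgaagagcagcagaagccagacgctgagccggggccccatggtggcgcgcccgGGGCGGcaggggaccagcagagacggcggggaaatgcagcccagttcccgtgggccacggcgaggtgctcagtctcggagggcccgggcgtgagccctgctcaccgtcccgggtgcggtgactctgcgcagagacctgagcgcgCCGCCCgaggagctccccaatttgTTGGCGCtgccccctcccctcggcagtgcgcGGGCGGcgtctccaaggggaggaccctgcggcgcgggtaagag

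The next 3 are promoters without a peak in any list. Col1a2 (chr6:4505368-4505667, plus strand) and Col3a1 (chr1:45311288-45311587, plus strand) encode chains of the collagens typical of fibroblasts. Col8a2 (chr4:126286544-126286843, plus strand) had the GC-richest window among those without a start peak in both lists.
Col1a2: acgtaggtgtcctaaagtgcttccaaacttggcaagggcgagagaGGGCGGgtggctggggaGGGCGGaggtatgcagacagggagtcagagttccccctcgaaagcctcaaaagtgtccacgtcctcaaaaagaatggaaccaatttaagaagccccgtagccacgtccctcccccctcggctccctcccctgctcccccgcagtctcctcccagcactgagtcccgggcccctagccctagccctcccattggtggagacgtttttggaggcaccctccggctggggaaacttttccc
Col3a1: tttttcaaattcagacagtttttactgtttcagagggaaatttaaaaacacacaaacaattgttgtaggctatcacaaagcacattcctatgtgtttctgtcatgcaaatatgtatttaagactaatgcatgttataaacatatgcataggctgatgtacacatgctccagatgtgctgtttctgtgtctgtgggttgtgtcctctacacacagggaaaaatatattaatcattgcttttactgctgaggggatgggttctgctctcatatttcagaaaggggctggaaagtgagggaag
Col8a2: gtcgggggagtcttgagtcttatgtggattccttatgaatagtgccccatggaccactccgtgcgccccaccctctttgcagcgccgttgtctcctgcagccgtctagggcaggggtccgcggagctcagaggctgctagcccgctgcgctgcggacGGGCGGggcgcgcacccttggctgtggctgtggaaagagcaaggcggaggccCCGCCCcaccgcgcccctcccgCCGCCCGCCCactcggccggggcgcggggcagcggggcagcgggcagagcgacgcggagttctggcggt

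The 3 windows shown with a peak each hold at least 2 copies of GGGCGG, and so do Col1a2, with 2, and Col8a2, with 4. The window of Col4a1, which also has a peak and is not shown, holds 1. Col3a1 has 0, and its window contains 0 CpG dinucleotides. Of the 6 windows shown, that of Col4a2 is the one with an E2F-like word.

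The fibrillar class had 1 of 11 genes with a peak in both lists. This was Col5a1, which encodes a chain of collagen V, the minor fibrillar collagen that limits the width of collagen I fibrils. In E2F1 replicate 1 its peak lay on chromosome 2 at 27885985 to 27887373, and its fold enrichment of 9.78 ranked 3569 of 7836. In replicate 2 it spanned 27886013 to 27886987, with a fold of 9.43 and rank 4872 of 8027. The summits lay 228 bp and 203 bp upstream of the annotated start, inside the promoter window shown. About 36 and 48 reads stood at the summits over local backgrounds of 2.78 and 4.20 reads. The peak was thus close to the middle of each list, at percentiles 54.5 and 39.3 of the folds.

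Col1a1, which encodes the major chain of collagen I, had a peak in E2F1 replicate 2, on chromosome 11, 94936548 to 94937199. The summit was inside the gene, 801 bp from a boundary, with a fold of 6.86 that ranked 6320. It rested on 25 reads over a background of 2.79 reads. E2F1 replicate 1 had no peak within 37847 bp of the gene. The −log10 p of the replicate 2 peak was 16.2, where the smallest in that list was 10.0, and its score stood at percentile 17.5. Its partner Col1a2, which encodes the other chain of collagen I, had its nearest peaks 58906 bp and 59077 bp away in E2F1 replicates 1 and 2. The remaining fibrillar genes, Col2a1, Col3a1, Col5a2, Col5a3, Col11a1, Col11a2, Col24a1 and Col27a1, had no peak in either list. Their nearest peaks ranged from 6228 bp for Col11a2 to 445329 bp for Col3a1, both measured in replicate 1. Col3a1, the chain of collagen III, thus lay in a long stretch without E2F1 peaks, together with its neighbour Col5a2 at a gap of 24624 bp, whose nearest peaks were 291753 bp and 291719 bp away.

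Collagen IV genes lie in head-to-head pairs, and 1 of the 3 pairs had a peak. Col4a1 and Col4a2 encode the chains of the common basement membrane network and overlap by 85 bp at their starts on chromosome 8. In E2F1 replicate 1 the shared peak covered 11312062 to 11313166, and its fold of 5.64 ranked 6718 of 7836. In replicate 2 it spanned 11312512 to 11313219, with a fold of 4.51 and rank 7869 of 8027. It was the weakest collagen site by fold in either list, at percentiles 14.2 and 1.97. With only peaks of at least 5-fold, neither gene had a peak in both lists, and 3 collagen genes remained (6.82%), against 31.9% of all protein-coding genes. Its pileups of 46 and 40 reads lay within the range of the other collagen sites, while its local backgrounds of 7.33 and 8.10 reads were higher than at Col5a1, Col23a1, Col1a1 and Col6a2 in the same list. The summits lay 150 bp upstream of the start of Col4a2 in replicate 1 and 0 bp from it in replicate 2. The word TTGGCGC in the Col4a2 window covers chromosome 8, 11312781 to 11312787, which lies within the peaks of both lists, 126 bp from the replicate 1 summit and 18 bp from the replicate 2 summit. On the strand of Col4a1 the same bases read GCGCCAA, after the annotated start of that gene.

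No peak was listed at the other collagen IV pairs, Col4a3 with Col4a4 and Col4a5 with Col4a6, which encode the chains of specialised basement membranes such as that of the kidney glomerulus. Col4a3 came closest, with peaks 2760 bp and 2780 bp away. Col4a5 and Col4a6 on chromosome X were among the collagen genes farthest from any peak, at 700719 bp and 539324 bp for Col4a5 and at 499719 bp and 500085 bp for Col4a6 in E2F1 replicates 1 and 2.

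Among the 9 FACIT genes, Col16a1 alone had a peak in both lists. It encodes a minor collagen found near fibrils and cell attachments. On chromosome 4 the replicate 1 peak covered 130047399 to 130048316, and its fold of 8.86 ranked 4131 of 7836. In replicate 2 it spanned 130047403 to 130048258, with a fold of 20.4 and rank 1749 of 8027. The summits were 201 bp and 142 bp upstream of the annotated start, in the window shown. This was the collagen site with the most reads in each list, with pileups of 83 and 107 over backgrounds of 8.48 and 4.29 reads. Its score, which rises with the pileup as well as with the fold, stood at percentiles 69.1 and 85.2. The summits also lay inside Gm12963, a long non-coding RNA gene that overlaps the start of Col16a1. The other FACIT genes (Col9a1, Col9a2, Col9a3, Col12a1, Col14a1, Col19a1, Col20a1 and Col22a1) had no peak in either list, and Col22a1 was the collagen gene farthest from a peak, at 916747 bp and 916579 bp.

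Of the transmembrane collagens, which are anchored in the cell surface, Col23a1 met the distance criterion through a peak beyond the gene and at the start of a neighbour. On chromosome 11 it covered 51584412 to 51585144 in E2F1 replicate 1 and 51584455 to 51585157 in replicate 2. Its folds were 13.1 and 13.6, ranking 2224 of 7836 and 3267 of 8027. The nearest base of the peak was 487 bp and 530 bp from the end of Col23a1, while the start of that gene was 295011 bp and 294923 bp from the summits. The same summits lay 150 bp and 62 bp from an annotated start of Phykpl, an enzyme that breaks down phosphorylated hydroxylysine, and inside that gene. Col13a1, Col17a1 and Col25a1 had no peak. When each peak was counted only for the protein-coding gene with the boundary nearest to its summit, 3 collagen genes remained (6.82%), against 28.97% of all protein-coding genes.

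Collagen VI had no gene of 6 with a peak in both lists. Col6a2, a chain of the beaded filaments that surround cells, had a peak in E2F1 replicate 2, on chromosome 10, 76623149 to 76623573. The summit was 101 bp downstream of an annotated start, with a fold of 5.97, rank 6973 of 8027 and 21 reads over a background of 2.68. At 425 bp it was the narrowest of the collagen peaks. In E2F1 replicate 1 the nearest peak was 126648 bp away. Col6a1, Col6a3, Col6a4, Col6a5 and Col6a6 had no peak in either list. The network collagens Col8a1, Col8a2 and Col10a1, the anchoring fibril gene Col7a1, the endostatin-type genes Col15a1 and Col18a1, and Col26a1 and Col28a1 had none either.

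**Figure D1:**
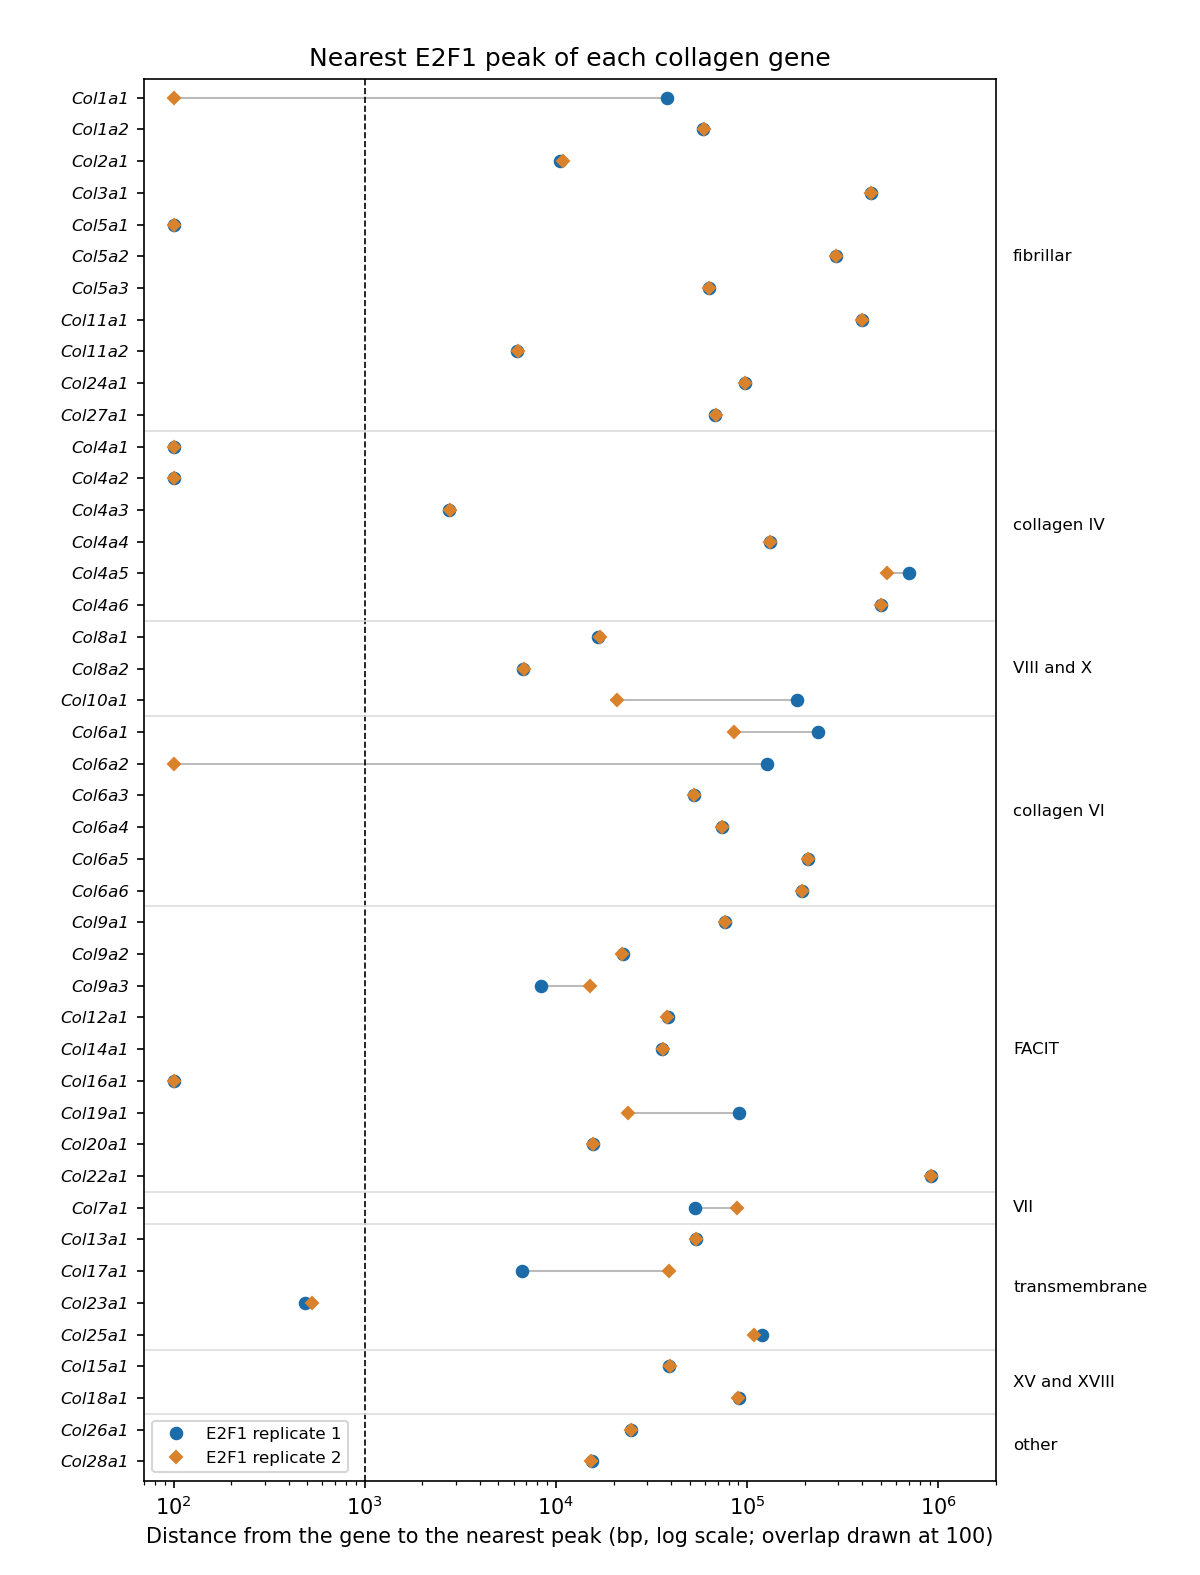
Distance in bp from each of the 44 collagen genes to the nearest peak of E2F1 replicate 1 (circles) and replicate 2 (diamonds), on a log axis, with genes grouped by structural class and genes that overlap a peak drawn at 100 bp. The dashed line marks 1000 bp, and 5 genes lie left of it in both lists, while Col1a1 and Col6a2 do so in replicate 2 alone.

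The collagen genes with a peak did not stand high in the lists. Over the 4 sites found in both lists, the folds ranged from 5.64 to 13.1 in E2F1 replicate 1 and from 4.51 to 20.4 in replicate 2. The medians of these folds, 9.32 and 11.5, were close to the medians over all peaks, 9.19 and 11.3. In each list 2 of the 4 sites were above the median fold of the list. The Col23a1 peak, which lies at the start of Phykpl, was among them in both lists, with folds of 13.1 and 13.6. The other was Col5a1 in replicate 1 and Col16a1 in replicate 2. With Col1a1 and Col6a2 included, the 6 sites of replicate 2 had a median fold percentile of 30.3. The mean over the lists of the median percentile of all collagen peaks was 40.6 ± 14.6 (SD, n = 2 lists).

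**Figure D2:**
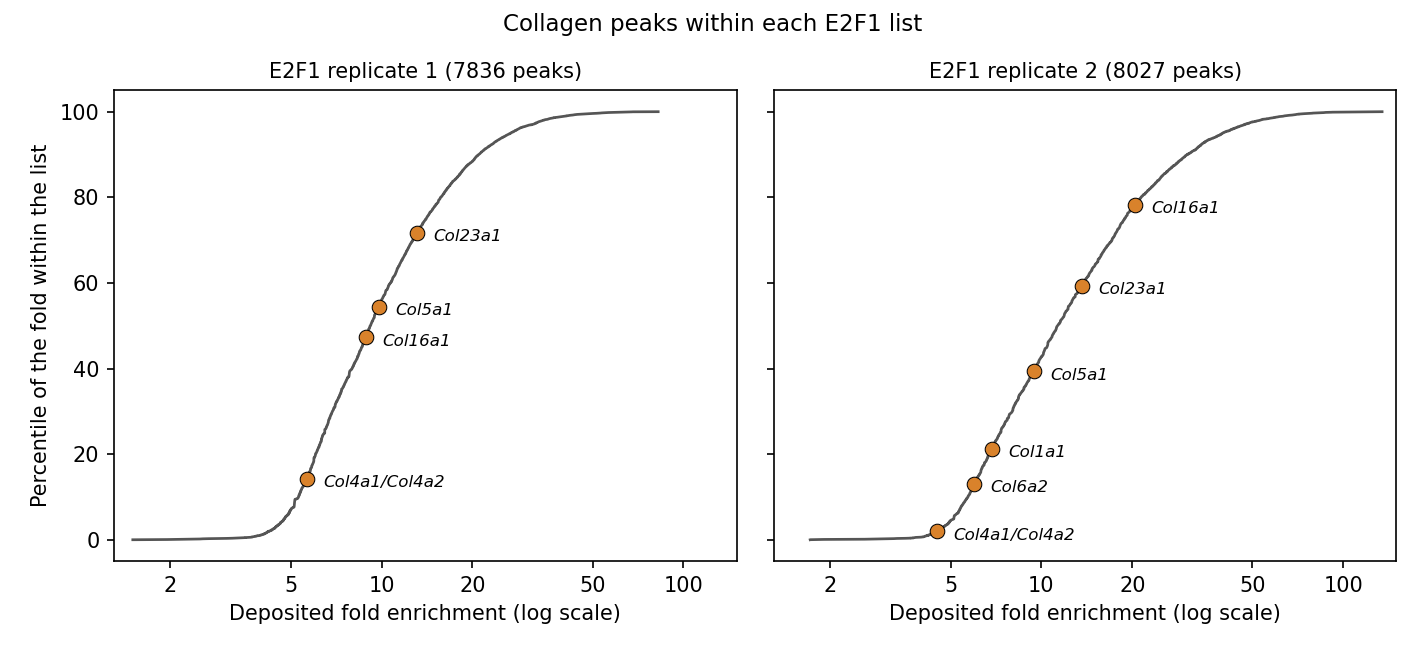
Deposited fold enrichment of every peak (horizontal, log scale) against its percentile within the list (vertical), for E2F1 replicates 1 and 2, with the collagen peaks as points on the curve. Col16a1 stands at a fold of 8.86 in replicate 1 and 20.4 in replicate 2, and the shared Col4a1 and Col4a2 peak is the lowest collagen point in both panels.

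In the EV libraries no collagen gene had a peak inside or within 1000 bp. In E2F1 replicates 1 and 2 there were 5 and 7, where all protein-coding genes gave 36.9% and 38.2%, and in EV replicates 1 and 2 there were 0 and 0, where all protein-coding genes gave 0.0366% and 0.407%. The E2F1 mean was 6 ± 1.41 genes (SD, n = 2), and both EV values were 0. The groups did not overlap, and an exact permutation test, two-sided, had p = 0.3333. No smaller p is possible with 2 libraries a group, so this design cannot pass 0.05. With so few EV peaks in all, a count of 0 among 44 genes is near the EV background and says little of collagen genes. The EV peak closest to any collagen gene was 55343 bp from Col28a1, in EV replicate 2.

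Collagen genes are long, and their length gives room for peaks that they did not have. The median length was 114410 bp, against 17169 bp for all protein-coding genes. Of the 29 collagen genes of at least 50000 bp, 5 had a peak in both lists (17.2%), where 46.5% of all genes of that length did. Of the 15 shorter collagen genes 0 did, against 30.9% of all shorter genes. The parts of collagen genes more than 1000 bp from both boundaries added up to 5.36 Mb and held 0 summits in any of the 4 lists. Over all protein-coding genes such parts spanned 993.1 Mb and held 1.29 and 1.28 summits per Mb in E2F1 replicates 1 and 2, leaving out summits within 1000 bp of any gene boundary. Counting peaks within 1000 bp of a gene boundary gave the same 5 collagen genes (11.4%), against 30.9% of all protein-coding genes.

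Distances to peaks were compared as well. The nearest peak, taking the farther of the 2 lists, was over 10000 bp away for 36 of 44 collagen genes (81.8%), against 59.2% of all protein-coding genes. It was over 100000 bp away for 13 of 44 (29.5%), close to the 32.8% of all protein-coding genes. By these shares the collagen genes stood apart from the whole set of genes at 10000 bp and were close to it at 100000 bp. Neither share was tested.

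The promoters of collagen genes were compared by base composition, a choice made with the peaks known. Of the 35 collagen genes in the promoter table, 4 had a peak within 1000 bp of a start in both lists (11.4%), against 33.1% of all protein-coding genes in that table. These 4, Col5a1, Col16a1, Col4a1 and Col4a2, had the GC-richest windows of all 35, from 73.7% to 75% GC, while the other 31 ranged from 37.7% to 71.7%. The windows of Col4a1 and Col4a2 overlap, so these are 3 separate stretches. Over all protein-coding genes, 73.1% of those with windows of at least 73% GC had such a peak, against 29.5% of those with windows below it. The limit of 73% was set after the collagen values were seen.

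Unlike GC content, CpG content did not fully separate the collagen genes with a start peak in both lists from the others. The ratio of observed to expected CpG is high in CpG islands, and for each gene the start with the highest ratio was taken. Its median was 0.47 in collagen promoters and 0.61 in all promoters. The median GC content of the same windows was 60% in collagen promoters and 57% in all promoters. Under 0.4, 0 of 14 collagen genes had a start peak in both lists, where 1.66% of all protein-coding genes did. From 0.4 to 0.6 it was 1 of 10 collagen genes, against 18.9%, and at 0.6 and over it was 3 of 11 (27.3%), against 59.3%. The 8 collagen genes with a ratio of at least 0.6 and no start peak in both lists were Col5a3, Col8a2, Col11a2, Col13a1, Col19a1, Col23a1, Col25a1 and Col27a1. Of these, Col8a2, Col13a1 and Col25a1 had higher ratios than Col4a2, Col5a1 and Col16a1, which had such a peak. Col4a1, also with such a peak, had the highest ratio of the collagen genes. The class of at least 0.6 held 31.4% of collagen genes and 50.9% of all protein-coding genes. The part of base composition in the low share of collagen genes was not tested.

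**Figure D3:**
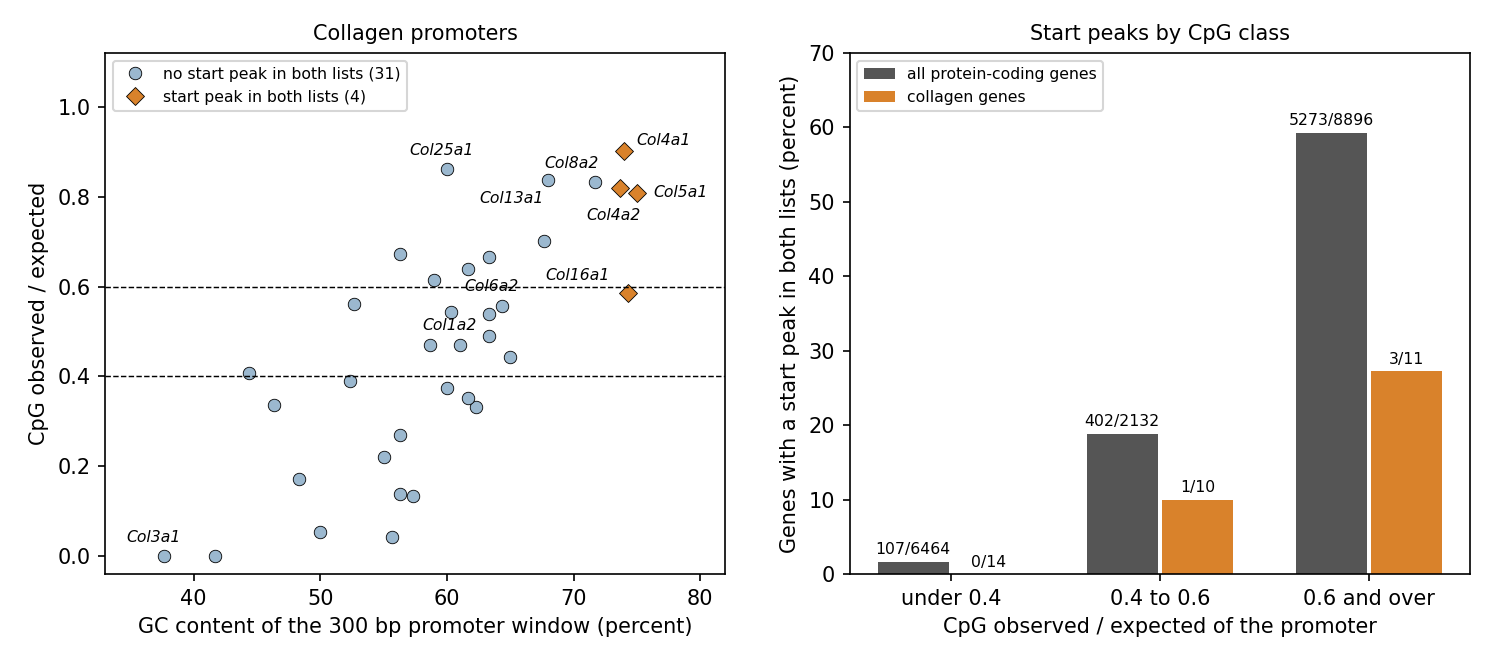
Left, GC content of the 300 bp promoter window (horizontal, percent) against the ratio of observed to expected CpG (vertical) for 35 collagen genes, with the 4 that have a start peak in both E2F1 lists as diamonds at the right edge. Right, percent of genes with a start peak in both lists by CpG ratio, for all protein-coding genes and for collagen genes, with the counts above the bars.

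E2F-like words were uncommon in collagen promoters, as in the promoters of all protein-coding genes. At least 1 of the 4 words was found in 4 of 35 collagen genes (11.4%), against 13.7% of all protein-coding genes, a share near the background. Over all promoter windows the single words occurred in 3.09% (TTGGCGC), 2.11% (TTCGCGC), 5.95% (TTCCCGC) and 2.16% (TTGCCGC). The collagen genes were Col4a1 and Col4a2, through the same bases, Col17a1 with TTCCCGC and Col19a1 with TTGCCGC, and neither of the last pair had a peak. Over all protein-coding genes, 25.1% of those with a start peak in both lists and 8.11% of the others had such a word. The Sp1-like word was found in 22 of 35 collagen genes (62.9%), against 49.2% of all protein-coding genes and 46.2% of all promoter windows. All 4 collagen genes with a start peak in both lists had it, and so did 18 of the 31 others (58.1%). Over all protein-coding genes it was found in 78.1% of those with such a peak and 35.0% of the others. Words outside the 300 bases were not searched.

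Genes that act on collagen were listed by hand for comparison, with earlier results of these data known. Of 37 collagen processing enzymes and chaperones, 21 (56.8%) had a peak in both E2F1 lists, above the 34.4% of all protein-coding genes. With peaks within 1000 bp of a gene boundary it was 16 (43.2%), against 30.9%. P3h4 and Fkbp10 had the same folds, 4.62 and 9.74 in replicates 1 and 2, so the 21 genes may stand on fewer sites. The 5 with the highest mean fold over both lists were Colgalt1, which adds galactose to hydroxylysine, the peptidyl-prolyl isomerase Fkbp14, the coat protein Sec24d, the prolyl hydroxylase subunit P4ha3 and the collagen export factor Mia3, with folds from 11.02 to 21.4 in replicate 1 and from 22.7 to 39.6 in replicate 2. Folds of overlapping peaks had a median ratio of 1.27 between replicate 2 and replicate 1, so genes named by the mean need not be the highest in both lists taken alone. In replicate 1, for example, P3h3 at 14.2 and Plod3 at 12.97 were above Fkbp14 and Mia3. The collagen chains stood at 5 of 44, and the difference between the lists was not tested.

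Matrix proteins other than collagens were closer to the collagen genes, with 6 of 32 (18.8%), against 34.4% of all protein-coding genes. Their 5 highest by mean fold were fibronectin (Fn1), the laminin chains Lamc1 and Lamb2, agrin (Agrn) and perlecan (Hspg2), with folds from 7.88 to 10.99 in replicate 1 and from 12.7 to 24.6 in replicate 2. The sixth, fibulin 2 (Fbln2), had the highest fold of these in replicate 1, 12.6, and the lowest in replicate 2, 8.01. Collagen receptors and collagenases gave 5 of 17 (29.4%), which were the receptor kinases Ddr1 and Ddr2, the integrin chains Itgb1 and Itga1 and the endocytic receptor Mrc2. Their folds ran from 6.67 to 17.8 in replicate 1 and from 5.35 to 32.8 in replicate 2.

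The TGF-beta pathway, the main signal that raises collagen expression in fibroblasts, had peaks in both lists at 13 of 18 genes (72.2%). Over all protein-coding genes the share was 34.4%, and the difference was not tested. Its 5 highest by mean fold were the signal transducer Smad2, the repressors Skil and Ski, the latency protein Ltbp3 and the co-receptor Tgfbr3, with folds from 9.25 to 37.6 in replicate 1 and from 17.3 to 33.6 in replicate 2. All 18 genes of a G1/S list, known E2F targets, had a peak in both lists, with the highest mean folds at Ccne1, Pcna, Ccne2, Cdt1 and E2f1. Folds at these 5, picked for their high mean, ran from 34.0 to 65.0 in replicate 1 and from 34.1 to 131.6 in replicate 2. Over all 18 genes the lowest folds were 7.06 and 8.62. The list thus overlapped the collagen folds, of which the highest were 13.1 and 20.4. The 13.1 was that of the Col23a1 peak, which lies at the start of Phykpl. No EV peak lay at a gene of any of these 5 lists. Over all protein-coding genes 0.0366% and 0.407% had a peak in EV replicates 1 and 2. The absence is thus near the EV background and says little of these lists.

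**Figure D4:**
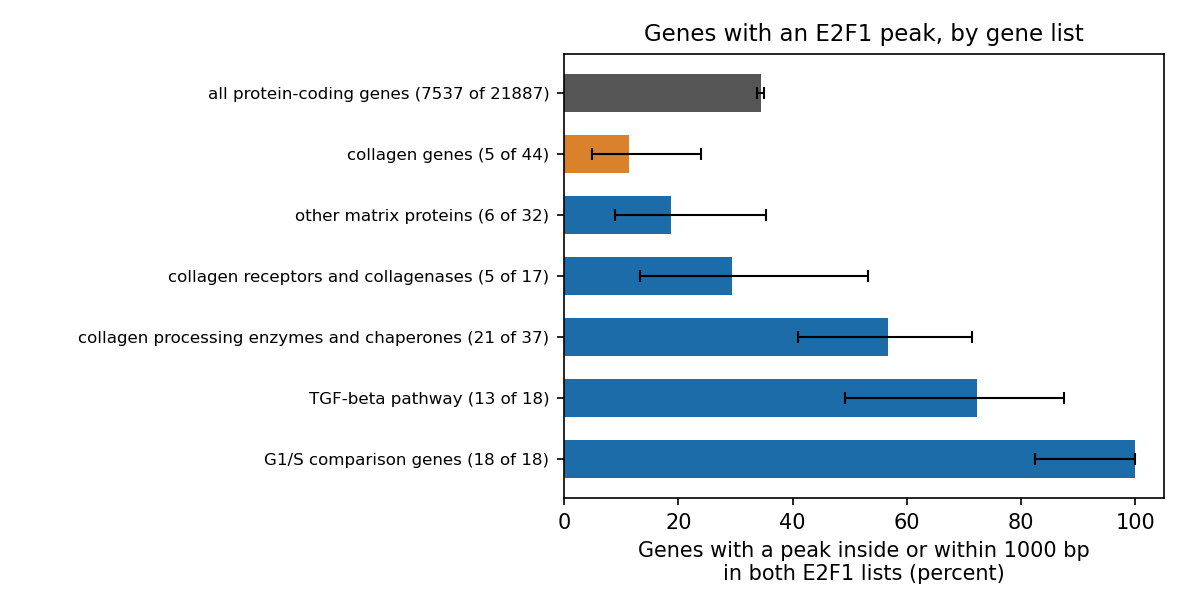
Percent of genes with a peak inside or within 1000 bp in both E2F1 lists, for all protein-coding genes, the 44 collagen genes and 5 comparison lists, with counts in the labels and Wilson 95% intervals as error bars, which cover counting error only. The collagen bar, at 11.4%, is the lowest of the 7, below all protein-coding genes at 34.4%.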

How the data were processed

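The data were 4 ChIP-seq peak lists, 1 per library, in the narrowPeak layout of 10 columns. Per the submitters' processing notes, FastQC, Trimmomatic, Bowtie2, MACS2 and ChIPseeker were used, with build mm10. Their versions and settings, the antibody and the control are not given in the sources used here, and the labels' protocols describe RNA libraries. The deposited score is 10 times the −log10 q-value within 1. The deposited fold is a ratio of read pileup to local background at the summit. Each peak also has a −log10 p-value and a −log10 q-value from the authors. The smallest −log10 p was 10.0 in each list. The 2 input samples named in the labels were not analysed here.

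Lists and genes were joined in Python 3.11.15 with pandas 2.3.3 and scipy 1.17.1, taking a gene as having a peak when any base of a peak lay inside it or within 1000 bp. Exons and introns were not used here. Pileup and local background were solved from the deposited fold and p-value, taking fold as pileup plus 1 over background plus 1 and p as a Poisson upper tail. A whole pileup matched within 5% of the step between neighbouring pileups for at least 95.7% of peaks in every list and for all collagen peaks. The joins and this solution were tested on simulated data. Shares have Wilson 95% intervals and no set test was run. For counts per library the test was an exact permutation test, two-sided.

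Members, lists and alternatives were chosen with earlier results of these data known. Every collagen gene with a peak in any list is named, and of each other list the 5 genes with the highest mean fold. The symbols Ctgf and Ctage5 were matched through synonyms. Alternatives were the distance, the score, the fold, the summit, gene length, the overlap of peaks and leaving out each library. Replicates were taken from the sample titles, and the p-value rests only on the possible splits of these libraries. Where the groups separate fully it is fixed by the design, whatever the spread between libraries.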

Additional observations from a re-analysis of the deposited data

How the results depend on the processing

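Of 43 alternatives over 4 results, 38 stayed within the interval, the spread or 1.5 times the count, 5 moved and 0 reversed. Some of these outcomes were fixed in advance, so the counts overstate how much was tried. Leaving out an EV library cannot change the shares or the percentile, which use the E2F1 lists alone. Leaving out 1 of the 2 E2F1 lists always moves the mean percentile by less than their SD, the limit used for it. The replicate block must give the same difference. With EV counts of 0 in every setting, the difference between groups could not reverse. With peaks at or above the median score of their list, the difference in genes between E2F1 and EV dropped from 6 to 2, the share of collagen genes with a peak in both lists from 11.4% to 4.55%, and the share with a boundary peak to 4.55%, since weaker peaks are removed. Over all protein-coding genes these shares were then 17.1% with a peak in both lists and 15.2% with a boundary peak. With peaks of at least 5-fold, the share with a peak in both lists was 6.82%, within its interval, as Col4a1 and Col4a2 had a fold of 4.51 in replicate 2. Among genes under 50000 bp the share with a peak in both lists was 0%. Among high CpG promoters, with a peak within 1000 bp of a start, it was 27.3%, an alternative chosen after seeing the data, as were counting each peak for the nearest gene (6.82%) and counting Col4a1 and Col4a2 once (9.30%). In all 18 alternatives run for the share of collagen genes with a peak in both lists it stayed below that of all protein-coding genes. Those without an EV library repeat the main value. Without 1 library at a time, the difference between groups ran from 5 to 7 genes, both shares from 11.4% to 15.9%, and the median fold percentile from 30.3 to 50.9. Without an E2F1 library, the shares count genes with a peak in the 1 E2F1 list that remained. The matching shares of all protein-coding genes were then 36.9% to 38.2% with a peak and 33.3% to 34.4% with a boundary peak. E2F1 replicate 2 alone listed peaks at Col1a1 and Col6a2.

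The replicate block gave the same difference of 6 genes, and its p by exact sign flips was 0.5, below which 2 pairs cannot go. With 1 count per library, whether the replicate numbers pair the samples cannot be checked. The p-value filter limits all counts to strong sites, and by its lowest local background EV replicate 2 was the shallowest library.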
